A study of Mus musculus with 10 samples.

Results

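Pou5f1 encodes Oct4, a POU-domain transcription factor needed for pluripotency. The gene was examined here in a stretch of mouse chromosome 17 that runs from 35620000 to 35670000 in build mm9. Pou5f1 lies on the plus strand at about 35642977 to 35647722, a length of 4746 bp, and its proximal and distal enhancers lie within 3 kb upstream of its start. Sites of open chromatin were selected by position, as all sites that share at least 1 bp with this stretch, in lists from 4 cell types. They number 66 of 1816946 sites in all: 22 of 387312 in EpiSC, 8 of 555868 in NSC, 7 of 431911 in MEF and 29 of 441855 in ESC. The locus had been chosen from these same data, for a block of high EpiSC scores with abrupt edges. The levels, coverage and ranks of EpiSC sites there are therefore given as a description, without a test.

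The lists come from FAIRE-seq, which enriches open chromatin. Fixed chromatin is broken up, proteins and the DNA crosslinked to them are drawn off with phenol and chloroform, and the DNA that remains in water, from regions with few nucleosomes, is sequenced. EpiSC are epiblast stem cells of the E3 line, a model of the primed pluripotent state. They were grown on mitomycin-treated fibroblast feeders with FGF2 at 5 ng/ml and were kept feeder-free in fibroblast-conditioned medium for 2 days before crosslinking. NSC are neural progenitors made from ES cells, cultured with 10 ng/ml each of FGF2 and EGF. MEF are fibroblasts of E16.5 embryos grown in serum. The MEF samples carry 1 label that names NSC chromatin, while their title and cell type name fibroblasts. ESC are E14 embryonic stem cells kept without serum in an inhibitor of MEK at 1 uM, an inhibitor of GSK3 at 3 uM and LIF at 1000 U/ml, a culture known as the ground state. The labels give no strain for EpiSC, NSC or MEF, and no genotype for any line beyond its name.

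There are 10 samples in 5 groups of 2, sheared genomic DNA being the fifth group, and 1 list per cell type was analysed. Differences between cell types thus have no replicate check. Each site has a deposited score without a stated unit, so a score is read only within its list. The median scores were 2.90 in EpiSC, 3.94 in NSC, 3.31 in MEF and 3.45 in ESC. On chromosome 17 the medians were 1.10, 0.993, 1.02 and 1.04 times those values, in the same order. In bulk chromatin, more cells with an open site and a more open site in each cell cannot be told apart.

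As background, Oct4 pairs with Sox2 on DNA and activates genes of the pluripotent network, its own gene among them. In mouse, the distal enhancer of Pou5f1 is known to drive the gene in naive embryonic stem cells and germ cells, and the proximal enhancer drives it in the epiblast and in EpiSC. The gene is silenced, with methylation of its promoter, when cells differentiate into somatic lineages. The promoter has no classical TATA box and is known for a GC-rich element next to a site bound by nuclear receptors.

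The RefSeq promoter of Pou5f1 is shown because its start lay inside a wide site in both pluripotent lists and in no site of the somatic lists. The sequence is that of GRCm38.p6, chr17:35505782-35506081, plus strand, with 250 bases before the start and 50 from it on. Its coordinates belong to that build and not to mm9. The gene has the same length, 4746 bp, in the RefSeq table as in the mm9 position used here. Capitals mark a GC box, GGGCGG, and a nuclear receptor half-site, AGGTCA.

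Pou5f1 promoter: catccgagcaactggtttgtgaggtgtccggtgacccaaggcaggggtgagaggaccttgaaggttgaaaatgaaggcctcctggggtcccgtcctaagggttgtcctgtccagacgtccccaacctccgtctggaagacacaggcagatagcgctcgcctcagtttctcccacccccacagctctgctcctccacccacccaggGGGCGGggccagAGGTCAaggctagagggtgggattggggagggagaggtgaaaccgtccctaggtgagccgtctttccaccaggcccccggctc

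The GC content of these 300 bases was 62.7%. The GC box lay 45 to 40 bases before the start and the half-site 33 to 28 bases before it, with no overlap between them. Both strands were searched. Of 32851 mouse promoters of the same length, 35.7% held GGGCGG and 16.3% held AGGTCA. An E-box, CANNTG, was found 242 to 237 bases before the start, and 72.3% of promoters held one. The letters CCAAT occurred on the minus strand 12 to 8 bases before the start, as in 37.4% of promoters. The octamer ATGCAAAT, held by 1.74% of promoters, the TATA box TATAAA, by 13.6%, and the SOX-like ACAAAG, by 18.7%, did not occur in this window. These matches describe the letters and do not show binding.

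Around the gene, sites covered far more of the sequence in both pluripotent cell types than in the somatic ones. Somatic coverage of the whole window was ordinary for the genome. Sites covered 53.6% of the 50001 bp in EpiSC, 8.86% in NSC, 8.45% in MEF and 53.8% in ESC. Among 52820 windows of 50 kb over the genome, only 11 were covered more fully in EpiSC, which puts the locus at the 99.98th percentile. In ESC 343 windows were covered more fully, a percentile of 99.4. The percentile was 59.4 in NSC, where 21433 windows were covered more fully, and 71.8 in MEF, where 14874 were. The median window was covered to 3.82% in EpiSC, 6.225% in NSC, 4.96% in MEF and 2.78% in ESC. The means were 6.57%, 9.42%, 6.35% and 8.60%, in the same order. None of the 1905 windows of chromosome 17 was covered as fully in EpiSC. The window was placed around a block of high-scoring EpiSC sites, many of them wide. High EpiSC coverage was therefore likely from the outset, and its rank is a description. Tiles of 1 kb gave the same picture. Of 50 tiles, 37 held part of an EpiSC site, 9 part of an NSC site, 9 part of a MEF site and 43 part of an ESC site. Over the genome 18.8% of tiles do so in EpiSC, 25.6% in NSC, 20.2% in MEF and 21.2% in ESC.

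**Figure D1:**
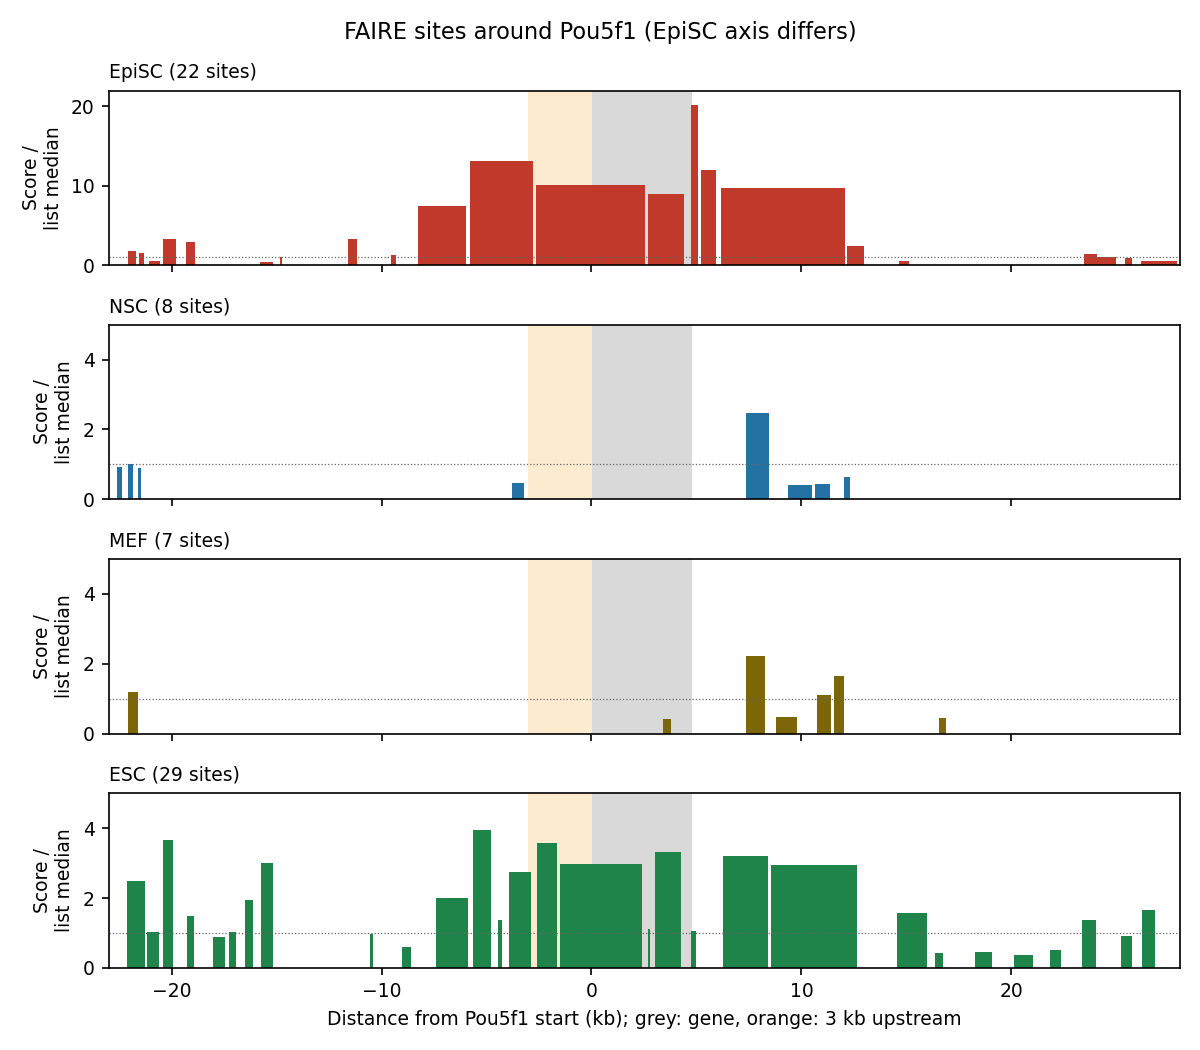
Sites from 35620000 to 35670000 on chromosome 17, by distance from the Pou5f1 start in kb, with score over the median of the site's own list on the y axis and a longer axis for EpiSC. Bars span each site; EpiSC and ESC sites fill the stretch around the gene, where 7 EpiSC sites stand between 7.48 and 20.1 times their list median, whereas NSC and MEF hold 8 and 7 sites in the whole window.

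The 3 kb upstream, where both enhancers lie, were open in each pluripotent list and in neither somatic list. Sites covered 95.9% of these bases in EpiSC, none in NSC, none in MEF and 86.0% in ESC. From 3 to 2 kb upstream the covered share was 87.8% in EpiSC and 70.8% in ESC. From 2 to 1 kb upstream it was 100% in EpiSC and 87.1% in ESC. In the last kb before the start it was 100% in both. Over these 3 kb, 2579 bp were covered in both lists, 299 bp in EpiSC and not in ESC, no base in ESC and not in EpiSC, and 122 bp in neither. These 3 kb lie in the EpiSC block, and EpiSC sites left only 122 bp of them free. Bases covered in ESC alone could thus hardly occur, and nothing about either enhancer is read from their absence. Only 0.0494% of 880526 tiles of 3 kb over the genome were covered as fully in EpiSC, and 0.449% in ESC. The EpiSC share describes the block for which the locus was chosen. The lack of somatic sites is less unusual. Mean coverage of such tiles was 9.42% in NSC and 6.35% in MEF. Of 1 kb tiles, only 25.6% held part of a site in NSC and 20.2% in MEF.

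In EpiSC these bases fell into the ends of 2 wide sites. The site from 35640311 to 35645506, 5196 bp wide with a score of 29.4, holds the Pou5f1 start and reaches from 2666 bp upstream to 2529 bp into the gene. It ranked 33rd by score among 387312 EpiSC sites, and was wider than 99.99% of them. Upstream of it came the site from 35637179 to 35640188, with a score of 37.8. In ESC the stretch was split more finely. The ESC site that holds the start runs from 35641486 to 35645360, 3875 bp wide with a score of 10.3, and is the second widest ESC site of the window. Just upstream, from 2601 to 1621 bp before the start, lay an ESC site from 35640376 to 35641356 with a score of 12.4, the third highest in the window. Between them was a gap of 129 bp, which the EpiSC site spans.

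The somatic lists had no site at the start, in the 3 kb before it or across most of the gene. The gene body was covered to 89.8% in EpiSC, 0% in NSC, 8.20% in MEF and 78.6% in ESC. Over all tiles of this width the mean was 6.57%, 9.42%, 6.35% and 8.60%, in the same order. The MEF site in the gene, from 35646373 to 35646761, had a score of 1.39, and only 1.07% of MEF scores were lower. NSC came nearest to the start with a site from 35639178 to 35639781, which ends 3196 bp upstream and has a score of 1.82, at the 13.0th percentile of its list. Both of these weak sites lay inside EpiSC and ESC sites.

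**Figure D2:**
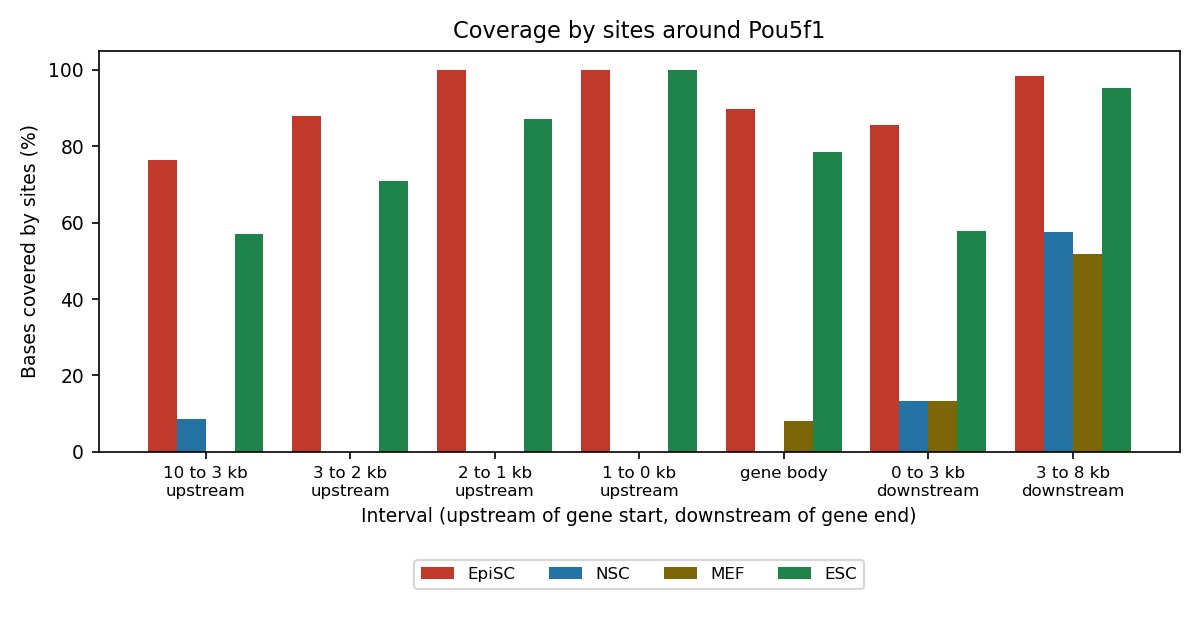
Percent of bases covered by sites in intervals upstream of the Pou5f1 start, in the gene and downstream of its end, with bars for EpiSC, NSC, MEF and ESC, 1 list each and so without error bars. EpiSC and ESC cover 100% of the last kb before the start, where NSC and MEF cover none; the somatic bars reach 57.4% and 51.8% from 3 to 8 kb downstream.

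Somatic sites were most extensive some way downstream of the gene. In the first 3 kb past the gene end, sites covered 85.6% of bases in EpiSC, 13.2% in NSC, 13.2% in MEF and 57.7% in ESC. From 3 to 8 kb past it they covered 98.3% of bases in EpiSC, 57.4% in NSC, 51.8% in MEF and 95.3% in ESC. This was high for every list. Of 528311 tiles of 5 kb over the genome, 0.00341% were covered as fully in EpiSC, 1.92% in NSC, 0.463% in MEF and 0.0356% in ESC. Most of this stretch lies in the EpiSC block for which the locus was chosen, so the EpiSC share is a description. The strongest somatic sites of the window lay downstream of the gene. The NSC site from 35650326 to 35651445 had a score of 9.70, at the 90.9th percentile of its list. The MEF site from 35650326 to 35651232, which begins at the same base, had a score of 7.32, at the 91.6th percentile. They overlapped an EpiSC site from 35649152 to 35655066, score 28.1, and an ESC site from 35649233 to 35651371, score 11.1. In all, 1902 bp between the gene end and 8 kb past it were covered in all 4 lists, whereas no base of the gene or of the 10 kb before it was.

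The other somatic sites in this downstream stretch had lower scores. NSC sites from 35652346 to 35653477, 35653617 to 35654329 and 35655005 to 35655308 had scores of 1.61, 1.73 and 2.48, all below the NSC median. MEF sites from 35651772 to 35652748, 35653738 to 35654397 and 35654542 to 35654983 had scores of 1.53, 3.63 and 5.44, of which the last is at the 79.8th percentile of its list. In the RefSeq table the genes that follow Pou5f1 are Tcf19, a nuclear protein with a forkhead-associated domain, and Cchcr1, a coiled-coil protein of the centrosome. The genes before it are the long non-coding RNA Gm32362 and H2-Q10, a class I histocompatibility gene. That table is on another build, so none of these sites was assigned to a neighbouring gene.

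Sites at the locus were widely shared. Of the 22 EpiSC sites, 17 overlapped an ESC site (77.3%, exact 95% interval 54.6 to 92.2), against 45.0% of the whole EpiSC list. Of the 29 ESC sites, 20 overlapped an EpiSC site (69.0%, 49.2 to 84.7), against 40.1% of the ESC list. The intervals cover counting alone, and neighbouring sites are not independent. Sites cover 53.6% of this window in EpiSC and 53.8% in ESC, against genome means of 6.57% and 8.60%. Their median widths here are 614 and 591 bp, against 338 and 373 bp in the whole lists. Dense and wide sites overlap those of any list more often by construction, and the whole-list shares do not allow for this. Of the 8 NSC sites 7 overlapped EpiSC, against 26.7% of the NSC list, 7 overlapped ESC, against 25.3%, and 4 overlapped MEF, against 30.5%. Of the 7 MEF sites 6 overlapped EpiSC, against 26.6% of the MEF list, all 7 overlapped ESC, against 25%, and 4 overlapped NSC, against 40.1%. Merged over the lists, the sites form 30 regions. Among them 11 were in EpiSC and ESC alone, 5 in EpiSC alone, 8 in ESC alone, 1 in NSC alone and none in MEF alone, and 2 were open in all 4. No shares over the whole genome are given for merged regions. These counts therefore describe this window and do not show whether its sharing is unusual.

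The scores set EpiSC apart within its own list. In EpiSC 10 of 22 sites were at or above the 95th percentile of scores, 8.22, which 5.00% of the list reaches. In ESC 6 of 29 sites were at or above that list's 95th percentile, 10.4, again reached by 5.00% of its list. NSC and MEF had no site at theirs, 11.5 and 8.37. The highest EpiSC score was 58.4, or 20.1 times the list median, the highest in NSC 9.70 (2.46 times), the highest in MEF 7.32 (2.21 times) and the highest in ESC 13.6 (3.95 times). Since the block was part of the choice of this locus, the EpiSC counts describe it and nothing more is read from them.

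**Figure D3:**
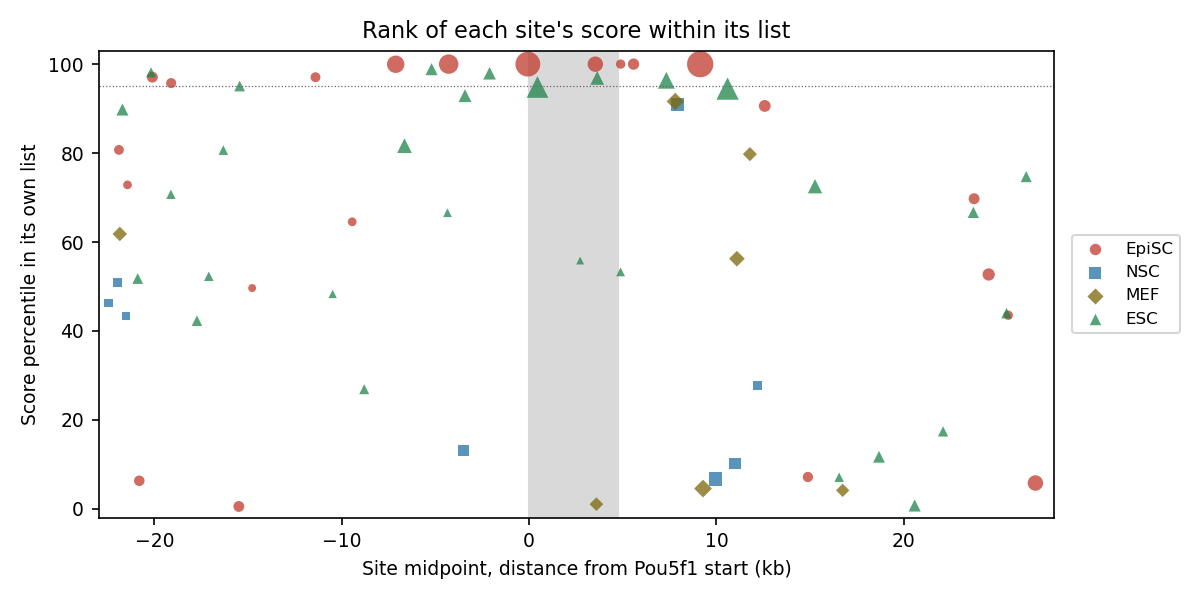
Percentile of each site's score within its own list (y axis) against the distance of its midpoint from the Pou5f1 start in kb, larger symbols marking wider sites and the dotted line the 95th percentile. The 7 EpiSC sites around the gene lie above the 99.9th percentile, the ESC sites there between 53.3 and 98.9, and the NSC and MEF sites at or below 91.6.

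The 7 highest EpiSC sites are neighbours and make up a run, defined as 5 or more adjacent sites at or above the 95th percentile of their list with gaps of at most 5 kb. The run goes from 35634698 to 35655066. It begins 8279 bp before the Pou5f1 start, ends 7344 bp past the gene end and is 20369 bp long, of which sites cover 94.1%. In order along the chromosome the scores were 21.7, 37.8, 29.4, 25.9, 58.4, 34.7 and 28.1. The lowest of them ranked 143rd in the EpiSC list and the highest 5th. EpiSC had 6 runs in all, and this one was second by length and second by median score, 29.4. NSC, with 43 runs over the genome, MEF, with 13, and ESC, with only 2, had none in the window.

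The sites of the run differ more in width than in score. The highest score belongs to the narrowest site, from 35647699 to 35648029, which is 331 bp wide and spans the gene end. The ESC site at that place, from 35647738 to 35647979, had a score of 3.64, the lowest of the 11 ESC sites within the EpiSC run. The next EpiSC site, from 35648206 to 35648896 with a score of 34.7, overlapped no site of another list and was the only run site of which this holds. The widest EpiSC site of the run, at 28.1, measured 5915 bp, and the first, from 35634698 to 35637013, measured 2316 bp.

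The edges of the run were abrupt. On the upstream side the score was 21.7 inside the run and 3.72 at the next site outside, from 35633420 to 35633645, across a gap of 1052 bp, a ratio of 5.83. On the downstream side it was 28.1 inside and 6.80 outside, from 35655150 to 35655959, across a gap of only 83 bp, a ratio of 4.13. Among 176940 pairs of neighbouring EpiSC sites at most 2 kb apart, a share chosen for description after the data were seen, 1.87% differed by the first ratio or more and 6.92% by the second. Abrupt edges were part of the choice of this locus. By the definition of a run, a site this near outside it also scores below 8.22. A step is thus built in, and these shares do not test the edges. Of the other 5 EpiSC runs, the one on chromosome 8 from 125950195 had steeper steps at both ends, 99.0 and 15.2. A pair of others had a steeper step at the downstream end alone, so that 3 of the 5 did. These were 9.41 on chromosome 10, across a gap of 61446 bp, and 6.04 on chromosome 4 from 133354389, across 817 bp. The downstream gap of the chromosome 8 run was 1343 bp, so all 3 steps span wider gaps than the 83 bp here. Within 15 kb of the run the 15 EpiSC sites outside it had a median of 3.72 and a maximum of 9.39, against a median of 29.4 inside, or 7.89 times as high.

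**Figure D4:**
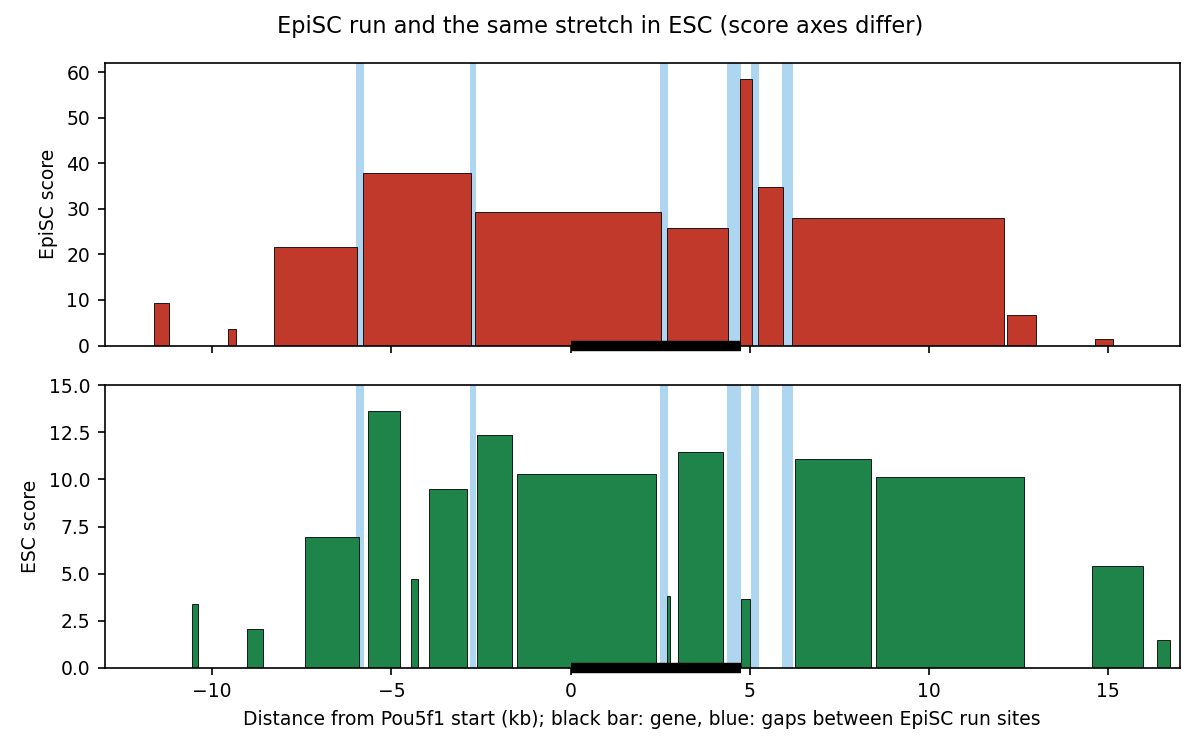
Scores of EpiSC sites (upper panel) and ESC sites (lower panel, shorter axis) by distance from the Pou5f1 start in kb, the black bar marking the gene and blue bands the 6 gaps between the EpiSC run sites. All 6 bands fall on bases that ESC sites leave free at least in part, and the 11 ESC sites that overlap the run have scores of 3.64 to 13.6.

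ESC sites were also dense within the limits of the EpiSC run, with lower scores relative to their list. A total of 11 ESC sites overlap the run, and were taken for that reason, so their outer ends, 35635561 and 35655627, lie near its ends by choice. Within the limits of the EpiSC run ESC sites covered 77.5% of bases, with scores from 3.64 to 13.6 and a median of 10.1, at the 94.5th percentile of the ESC list. That median was 2.84 times the median of the 18 ESC sites within 15 kb outside, 3.57. The first of the 11 had a score of 6.93 and the ESC site before it, from 35633955 to 35634393, 2.05. The last had a score of 10.1 and the ESC site after it, from 35657532 to 35658943, 5.38. The NSC site from 35655005 to 35655308 also crosses the downstream end of the EpiSC run. In the limits of the run NSC sites covered 17.8% and MEF sites 16.6% of bases.

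The places left free within the run were mostly free of ESC sites as well. The run has 6 gaps between sites, of 122 to 334 bp and 1203 bp together. All 6 touched bases that no ESC site covers, and 5 held no ESC base at all. In total 93.8% of the gap bases were also free of ESC sites, against 18.0% of the bases that EpiSC sites cover. No such share is given for short gaps between EpiSC sites elsewhere in the genome. These values therefore describe this run and do not show whether it is unusual. For example, EpiSC sites left 35645507 to 35645657 free, and an EpiSC and an ESC site both begin at 35645658. The gap from 35640189 to 35640310, which begins 2788 bp upstream of the start, was free in all 4 lists. Whether repeats or the mapping of reads bear on these gaps was not tested.

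The labels do not say whether the EpiSC line carries added DNA of this locus, such as a Pou5f1 reporter, and the sheared genomic DNA was not analysed here. Whether the number of copies of this stretch in the EpiSC bears on its scores and edges was not tested. A number of copies and open chromatin cannot be told apart from these lists alone.

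Outside the run EpiSC and ESC shared fewer of their open bases, which follows in part from how the run was defined. EpiSC sites cover 94.1% of the run, so few of its bases could be covered in ESC alone. Within the run 15721 bp were covered in both lists, 3445 bp in EpiSC and not in ESC and 75 bp in ESC and not in EpiSC. On the upstream side of the window these numbers were 2439, 1161 and 2263 bp, and on the downstream side 2561, 1458 and 3839 bp. From 35620000 to the run, sites covered 24.5% of bases in EpiSC, 3.78% in NSC, 3.41% in MEF and 32.0% in ESC. From the run to 35670000 they covered 26.9% in EpiSC, 1.62% in NSC, 2.32% in MEF and 42.9% in ESC. The ESC sites there from 35661250 to 35662056, 35663118 to 35663994 and 35664822 to 35665323 had scores of 1.61, 1.29 and 1.74, at places where EpiSC, NSC and MEF had none. EpiSC in turn had a site from 35631363 to 35631784, between 11614 and 11193 bp before the start, with a score of 9.37 at the 97.0th percentile of its list and no overlap in another list.

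The limits of the window cut few sites. The last EpiSC site inside, from 35669140 to 35670863 with a score of 1.47, reaches past the limit, and the next outside begins at 35671207 with a score of 7.77. On the other side the first EpiSC site inside begins at 35620878 with a score of 5.16, and the last outside ends at 35611438 with a score of 3.64. In ESC the nearest sites outside end at 35608035, with a score of 7.62, and begin at 35670474, with a score of 1.28. In NSC they end at 35612660 (score 2.66) and begin at 35671204 (4.43), and in MEF they end at 35578697 (2.05) and begin at 35671260 (1.43).

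Windows with a similar pattern of coverage were found elsewhere, with lower EpiSC scores. Likeness was the Euclidean distance, in percentage points, between the covered shares of the 4 lists, over 49434 autosomal windows of 50 kb. The 5 nearest were chromosome 4 from 147500001 to 147550000, chromosome 15 from 102050001 to 102100000, chromosome 8 from 123600001 to 123650000, chromosome 17 from 27150001 to 27200000 and chromosome 4 from 151700001 to 151750000. Their distances ran from 10.7 to 13.6. Sites covered 41.2% to 54.0% of them in EpiSC, 2.60% to 12.5% in NSC, 3.81% to 16.8% in MEF and 42.3% to 60.3% in ESC. Their highest EpiSC scores lay between 8.67 and 11.1, against 58.4 at Pou5f1, and their highest ESC scores between 10.4 and 14.1, against 13.6 at Pou5f1. They held 1 to 4 EpiSC sites at or above the 95th percentile, against 10 at Pou5f1. Pou5f1 was chosen for its high EpiSC scores and these windows for their coverage alone. Their lower EpiSC scores were therefore likely from the outset and are given as a description.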

How the data were processed

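FAIRE-seq libraries were amplified by PCR, cut from agarose gels and sequenced on an Illumina Genome Analyzer, per the labels' protocols. CASAVA 1.8 and build mm9 are named in the submitters' processing notes. The deposited lists give position, a score and a display value per site. The lists are named qeseq sites, without more on how they were called. For the score the method and unit, and for the lists the threshold, control and pooling, are not stated in the sources used. The deposited display value, a second score of 100 times the first with a ceiling of 1000 (to within 1), was not used. Read depth is unknown. Starts were taken as 0-based, and positions are printed 1-based.

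The window, the members and the named items were chosen with earlier results of these data known, and the gene position came with the window. Coverage is the share of bases under the union of sites, set beside all windows or tiles of the same width, up to the last site of a chromosome. Named are, per list, the highest-scoring and widest sites, those near the gene and those at the edges, and the 5 autosomal windows most alike. No test between cell types was made, since each has 1 list. No mm9 annotation was used, so marker genes of the cell types were not looked up. Alternatives were other windows, shorter lists, another overlap rule and other limits for runs. Python 3.11.15 was used with matplotlib 3.10.9, pandas 2.3.3, numpy 2.4.6 and scipy 1.17.1. Functions were tested on simulated intervals, and counts and coverage of the window matched bedtools 2.31.1.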

Additional observations from a re-analysis of the deposited data

How the results depend on the processing

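No paired analysis was possible because only 1 list per cell type was at hand, which also left no replicate to leave out. All alternatives were planned. A count or length stayed if it was within 1.5 times the main value. A share or percentile stayed if it was within the exact 95% interval of the main value. The trials were bases for coverage, windows for percentiles and sites for overlap, although none of these are independent. By these limits 54 values stayed and 32 moved. Some of the 54 could not move, so their number does not measure robustness. No alternative changed the order of pluripotent over somatic coverage. The EpiSC run kept both ends with the 98th percentile and with gaps of 2 or 10 kb, and the 90th percentile added the next site downstream, for 8 sites and 21262 bp. The coverage upstream stayed as it was with the top 50% of scores or lists of equal length, but it could not have moved. The EpiSC sites there have scores of 29.4 and 37.8 and the ESC sites 9.52 to 12.4, above list medians of 2.90 and 3.45. EpiSC is the shortest list and was not cut to reach equal length, and dropping sites cannot add somatic coverage. The overlap shares stayed within their intervals, which are wide (54.6 to 92.2 for EpiSC sites in ESC, 49.2 to 84.7 for ESC sites in EpiSC).

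Numbers of sites moved as the construction implies. The top 50% of scores left 2 NSC and 4 MEF sites, and lists of equal length left 4 NSC and 4 MEF sites. A window of 100 kb held 39 EpiSC, 17 NSC, 12 MEF and 46 ESC sites, and the gene with 10 kb on each side held 10 EpiSC, 5 NSC and 13 ESC sites. Coverage with the top 50% of scores was 47.7% in EpiSC, 2.64% in NSC, 5.02% in MEF and 45.3% in ESC. With lists of equal length it was 3.35% in NSC, 5.02% in MEF and 49.7% in ESC. In the 100 kb window it was 38.6% in EpiSC, 9.40% in NSC, 7.10% in MEF and 42.2% in ESC, and in the gene with 10 kb on each side 82.1%, 15.7%, 13.6% and 68.6%. The MEF site in the gene was absent (0%) from the top 50% of scores and from the list of equal length. Among windows of chromosome 17 alone the percentiles were 100 in EpiSC, 60.2 in NSC, 67.3 in MEF and 99.1 in ESC. Unknown depth limits how far the lengths of lists can be compared.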

Other observations

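At the upstream end of the window lay a small group of sites open in every list, more than 20 kb from the gene. The EpiSC site from 35620878 to 35621289 had a score of 5.16, the NSC site from 35620918 to 35621117 a score of 4.01, the MEF site from 35620878 to 35621378 a score of 3.95 and the ESC site from 35620837 to 35621700 a score of 8.60. The EpiSC and MEF sites begin at the same base. Past it came sites found in the pluripotent lists and not in the somatic ones. The first, from 35621897 to 35622439 in EpiSC and from 35621791 to 35622377 in ESC, had scores of 1.48 in EpiSC and 3.55 in ESC. The next, from 35622558 to 35623174 in EpiSC and from 35622572 to 35623020 in ESC, had scores of 9.39 in EpiSC and 12.6 in ESC. The score percentiles of the sites at this place were 97.1 in the EpiSC list and 98.2 in the ESC list. The ESC site is the second highest of that list in the window, and NSC and MEF had no site there.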
